A study of Mus musculus with 21 samples.

Results

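Macrophage and leukocyte marker genes were followed through 21 RNA sequencing libraries of mouse pancreatic tumour cells. The 32 genes were picked by symbol from the 24623 genes of the deposited expression table, and all 32 were found. They lie on 15 chromosomes (mm10). Of these genes 26 were treated as restricted to leukocytes, and the other 6 (Lyz2, Apoe, Cd14, Cd68, Ctss and Arg1) can also be expressed by tumour or stromal cells. The tumour cells belonged to 2 clones, 6694c2 and 6419c5, and had grown under the skin of C57BL/6 mice for 3 weeks before they were sorted from the tumours. No mice were treated. Each clone had 2 lines labelled EPHA2-KO, lettered KOA and KOB in the table, and its parental line, here WT. EPHA2 is a receptor tyrosine kinase that binds ephrins. In 6694c2 there were 4 libraries each of KOA, KOB and WT, and in 6419c5 there were 3 of each. The titles number the KO lines instead of lettering them, so a lettered line was tied to its clone but not to one title. The labels give neither the gate or marker of the sort, nor the way EPHA2 was edited, nor whether a KO line is 1 clone. Nor do they tie libraries to single animals, so every p-value below measures the spread between libraries, which may be technical.

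Macrophages arise from monocytes or from embryonic precursors and are often the most abundant leukocytes of a pancreatic tumour. The transcription factor PU.1, encoded by Spi1, and the receptor CSF1R drive their differentiation and survival. Fc receptors and TREM2 signal in them through the adaptors FCER1G and TYROBP, and scavenger receptors, complement C1q and the NADPH oxidase serve the uptake and killing of targets. In a library of sorted tumour cells, transcripts of these genes can come from leukocytes that passed the sort or from the tumour cells themselves, and bulk RNA cannot tell fewer cells of a type from less RNA per cell.

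Levels are given as TPM, a transcript's share of all transcripts in a library, already divided by its length, so that levels of different genes can be set side by side. TPM keeps no record of reads, and the depth behind each value is unknown. A list of 10 epithelial markers summed to between 5870 and 16554 TPM per library, carried by the keratins Krt8, Krt18 and Krt19, while Epcam and Cldn4 went down to 0.864 and 0.0566 TPM. Epha2 averaged 115 ± 18.3 TPM in KOA and 97.8 ± 11.4 TPM in KOB of 6694c2, against 245 ± 5.11 TPM in WT (SD, n = 4 each), a KO effect of −1.21 ± 0.09 on the log2 scale (SE, adjusted p 1.5e-08, limma). In 6419c5 it averaged 150.5 ± 6.06 TPM in KOA and 197 ± 25.7 TPM in KOB, against 176 ± 13.5 TPM in WT (SD, n = 3 each), a KO effect of −0.03 ± 0.10 (adjusted p 0.819). A gene-level value cannot show a small edit, so in 6419c5 the KO label rests on the titles. The small RNA gene Mir6236 took 145023 TPM in 6694c2 KOB library 4 and 91142 TPM in 6419c5 WT library 3, against 22665 to 54492 TPM in the other 19 libraries, and results that rest on these 2 libraries are also given without them.

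The marker genes were detected in all 21 libraries, with no member listed at 0, but their levels differed widely between libraries of the same line. Summed over the 26 leukocyte-restricted genes, the lowest library was 6694c2 KOB 1 with 80.3 TPM, or 0.00803% of its transcripts. The highest was 6419c5 KOA 2 with 4008 TPM, or 0.401%, which is 49.9-fold more. The sums include Cybb and Cd53, which followed the other members less closely and had 11.99 and 6.80 TPM in 6694c2 KOB 1. In 6694c2 the sum was 197, 373, 776 and 915 TPM in KOA libraries 1 to 4 and 80.3, 349, 186 and 108 TPM in KOB libraries 1 to 4, against 294, 1116, 295 and 180 TPM in WT libraries 1 to 4. All 3 lines of that clone overlapped, and WT 2 stood above the other 11 libraries. In 6419c5 the sum was 310, 4008 and 219 TPM in KOA and 241, 346 and 277 TPM in KOB, against 677, 2000 and 1891 TPM in WT. There 5 of the 6 KO libraries lay below every WT library, and the sixth, KOA 2, lay above them all.

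**Figure D1:**
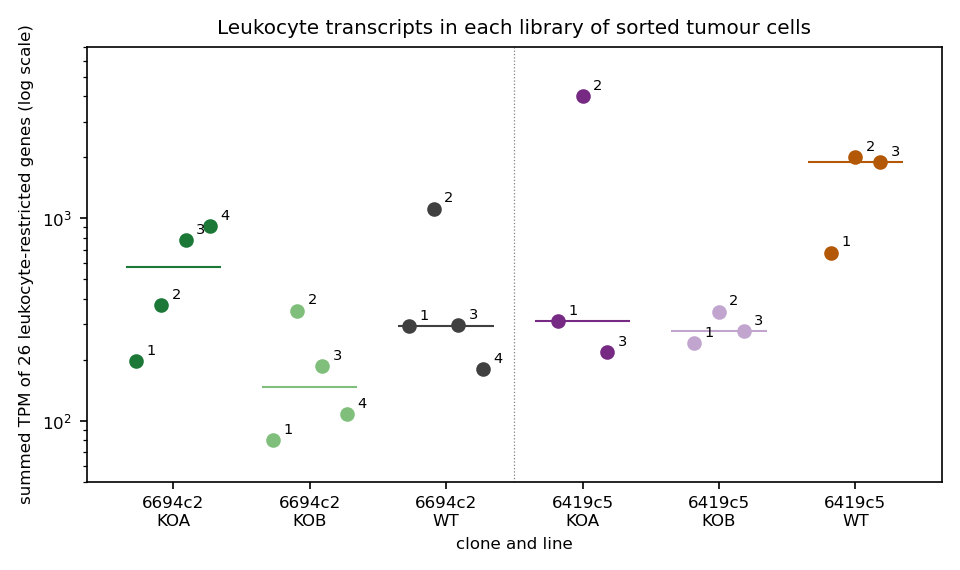
Summed TPM of the 26 leukocyte-restricted genes (y axis, log scale) in each of the 21 libraries, grouped by clone and line (x axis). Points are libraries with their numbers and bars are line medians. 6419c5 KOA 2 (4008 TPM) and 6694c2 WT 2 (1116 TPM) stand apart from the rest of their lines, while the KOB libraries of 6419c5 lie between 241 and 346 TPM.

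As line means, the sums were 565 ± 336 TPM in KOA and 181 ± 121 TPM in KOB, against 471 ± 433 TPM in WT of 6694c2 (SD, n = 4 each). They were 1512 ± 2162 TPM in KOA and 288 ± 53.2 TPM in KOB, against 1523 ± 735 TPM in WT of 6419c5 (SD, n = 3 each). Within a line the highest library was 2.95 to 18.3-fold the lowest in 5 of the 6 lines, and 1.43-fold in KOB of 6419c5. On the log2 scale the KO mean over the WT mean was −0.34 in 6694c2, and it turned to 0.54 when WT 2 was left out. In 6419c5 it was −0.76, and −2.45 when KOA 2 was left out. No test was made on these sums.

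The same libraries were high for nearly every gene. WT 2 of 6694c2 had the highest level in its line for 32 of 32 members, KOB 2 for 28 and KOA 4 for 22. In 6419c5, KOA 2 was the highest of its line for 31 members, the exception being Cd14, and WT 1 was the lowest of its line for 31. Set against the mean of KOA 1 and KOA 3, the level in KOA 2 was higher by a median of 16.4-fold over the members, against 0.985-fold over all 14337 genes tested. It was at least 5-fold higher for 29 of the 32, as it was for 4.25% of all tested genes. The 3 members below 3-fold were Cd53 at 2.78-fold, Cybb at 1.58-fold and Cd14 at 1.11-fold. The sum of 10 epithelial markers was 0.905 times as high in KOA 2 as in the other KOA libraries.

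**Figure D2:**
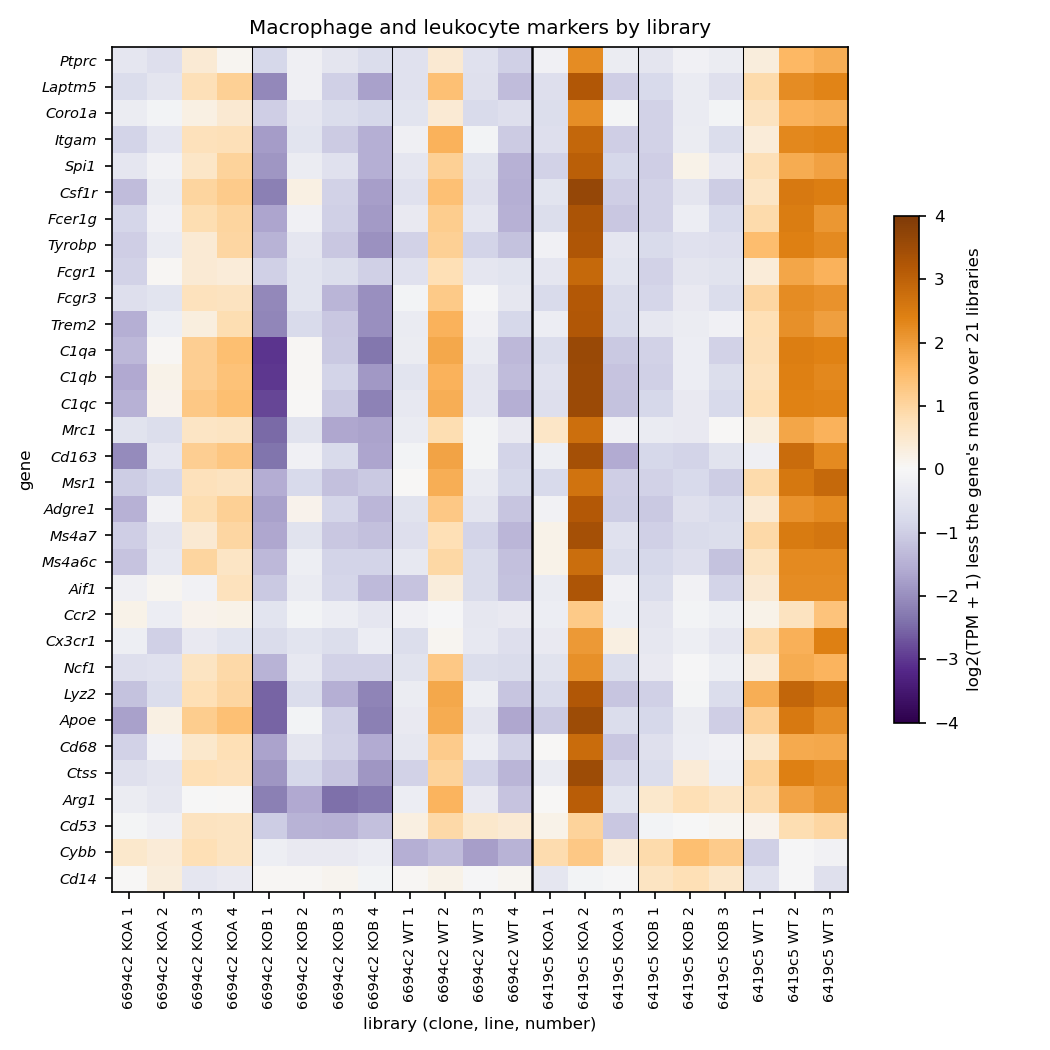
Each of the 32 genes (rows, ordered by role, with the 3 that departed from the shared pattern at the bottom) in each of the 21 libraries (columns), as log2(TPM + 1) less the gene's own mean over the libraries. Orange is above and purple below that mean. Whole columns change colour together, above all 6419c5 KOA 2, 6419c5 WT 2 and WT 3, and 6694c2 WT 2, and Cd53, Cybb and Cd14 follow them least.

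Complement C1q is a secreted protein of 3 chains, encoded side by side by C1qa, C1qb and C1qc within 18719 bases of chromosome 4 (mm10), and macrophages are its chief source. C1qa stood at 26.9, 73.7, 156 and 196 TPM in KOA libraries 1 to 4 and at 7.59, 72.2, 33.1 and 13.3 TPM in KOB, against 57.8, 252, 55.5 and 26.8 TPM in WT of 6694c2. In 6419c5 it stood at 42.6, 849.6 and 32.9 TPM in KOA and 36.5, 59.1 and 36.5 TPM in KOB, against 121, 393 and 375 TPM in WT. The lines of 6694c2 overlapped, and in 6419c5 every KO library other than KOA 2 lay below the WT libraries. Although C1qb spanned 111-fold and C1qc 95.2-fold between libraries, the 3 genes kept their proportions. C1qc over C1qa stayed between 0.749 and 0.959 in all 21 libraries, a spread of 1.28-fold, and C1qb over C1qa between 0.682 and 1.15, a spread of 1.69-fold.

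Csf1r, the receptor for CSF1 and IL-34 that most macrophages need to survive, lies on another chromosome but kept almost as fixed a proportion to C1qa. It measured 4.40, 9.70, 25.5 and 29.8 TPM in KOA and 1.90, 14.5, 5.98 and 2.87 TPM in KOB, against 7.84, 34.2, 7.73 and 3.62 TPM in WT of 6694c2. In 6419c5 it measured 8.28, 164 and 5.70 TPM in KOA and 6.01, 8.49 and 5.59 TPM in KOB, against 19.3, 76.01 and 70.7 TPM in WT. Its ratio to C1qa ran from 0.132 to 0.25, a spread of 1.9-fold, over an 86.5-fold range of its level. Apoe, which carries lipids and was the most abundant member, had a ratio spread of 2.01-fold. Itgam (integrin CD11b), Laptm5 (a lysosomal membrane protein of blood cells), Adgre1 (the macrophage surface receptor F4/80) and Spi1 had spreads of 2.58, 2.67, 2.72 and 2.82-fold. At the other end were Cx3cr1 with 20.9-fold, Cd53 with 23.9-fold, Cybb with 77.7-fold and Cd14 with 122-fold.

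**Figure D3:**
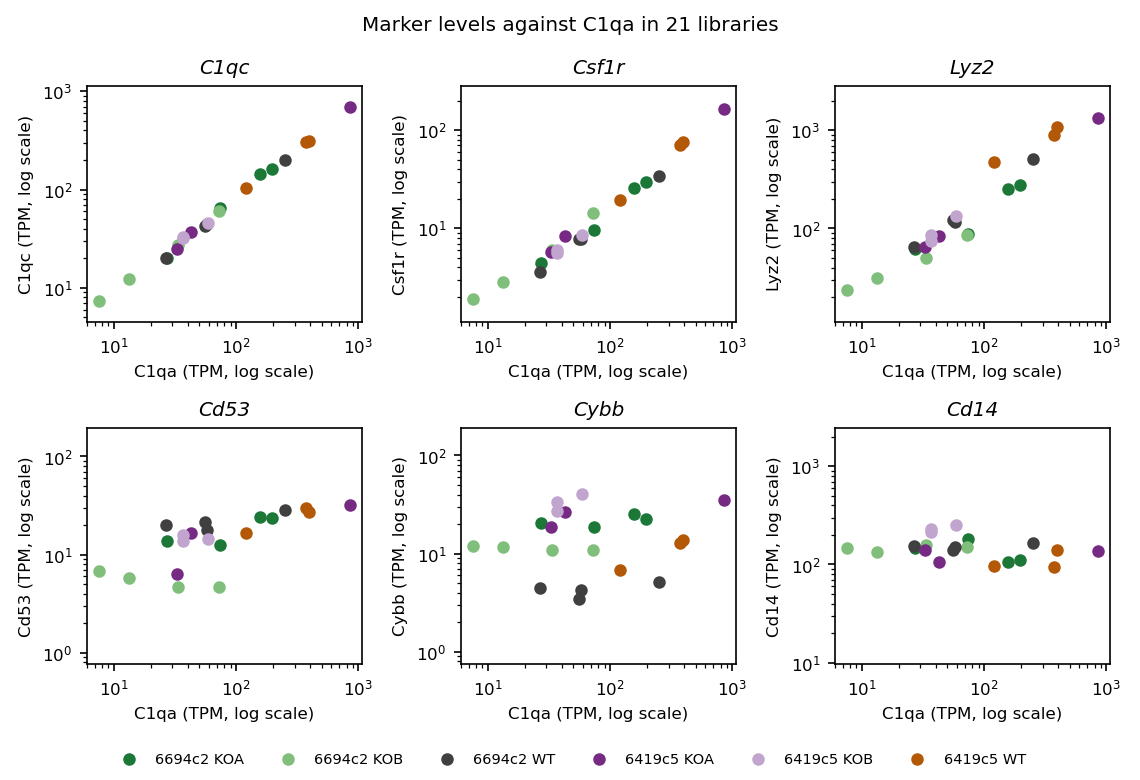
Levels of C1qc, Csf1r, Lyz2, Cd53, Cybb and Cd14 (y axes) against C1qa (x axes), all in TPM on log scales, with 1 point per library coloured by line. The y axes all span the same fold range. C1qc and Csf1r rise in proportion to C1qa over all 21 libraries, Lyz2 does so more loosely, and Cybb and Cd14 change little along C1qa, with the KO points of Cybb above the WT points of their clone.

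After each line's own mean was taken away, 27 of the 32 members had a Pearson's r of at least 0.9 with the mean of the restricted members over the 21 libraries (median 0.970), against 1.99% of all tested genes. The libraries share their cells and depth across genes, so these values describe the set and carry no p. Without 6419c5 KOA 2, 24 members were at 0.9 or more (median 0.951), against 1.1% of the tested genes. The weakest were Ccr2 with 0.832, Cx3cr1 with 0.771, Cd53 with 0.768, Cybb with 0.694 and Cd14 with 0.045. Without KOA 2 these 5 had r of 0.633, 0.501, 0.573, 0.574 and −0.094. Among genes on no list, those that followed the members closely included Nrros (r = 0.995), Rab3il1, Cd300ld, Kctd12, Nxpe5, Rassf2, Lrrc25, Unc93b1 and Sirpa (r = 0.985), and over the 20 libraries without KOA 2 their r was between 0.970 and 0.990.

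PU.1 binds a purine-rich core. A single 6-letter form of it was counted in the promoters of the members because so many of the genes moved together. RefSeq promoters of build GRCm38.p6, which cover 250 bases before to 50 bases after a transcript start, were at hand for 24 of the 32 genes, 30 promoters in all. The form AGGAAG, read on both strands, occurred in 18 of the 30 member promoters (60%), against 35.4% of all 32851 promoters. At least 2 copies occurred in 9 (30%), against 8.62%. Counted by gene, 16 of the 24 held it. Some genes have several promoters, and those of Fcgr3 and of Ptprc overlap, so the promoters are not independent. A match of letters is a description and not a binding site. Other forms of the core were not counted, so a promoter without AGGAAG may still hold a site. Below are 2 neighbouring C1q genes and the Fc receptor adaptor Fcer1g, whose levels moved together, and Cybb, whose level followed theirs more weakly. Capitals mark AGGAAG or its reverse complement CTTCCT. The C1qb, C1qc and Fcer1g promoters held 2 copies each. The Cybb promoter held no AGGAAG on either strand, though it does hold the shorter letters GGAA. The letters did not sort the members cleanly by pattern: the promoters of Ms4a7, Cd68, Ncf1, Cd163 and Aif1, which also moved together, held none. Of the other members that followed the rest least, Ccr2 and Cx3cr1 held none, Cd53 held 1, and Cd14 had no promoter at hand.
C1qb, chr4:136886151-136886450, minus strand: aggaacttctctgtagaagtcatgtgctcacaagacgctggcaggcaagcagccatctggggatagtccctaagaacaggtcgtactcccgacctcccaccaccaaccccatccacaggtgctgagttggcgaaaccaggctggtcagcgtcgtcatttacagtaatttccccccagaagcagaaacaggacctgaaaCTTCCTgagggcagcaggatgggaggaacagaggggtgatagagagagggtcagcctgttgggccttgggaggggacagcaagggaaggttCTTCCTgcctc
C1qc, chr4:136892865-136893164, minus strand: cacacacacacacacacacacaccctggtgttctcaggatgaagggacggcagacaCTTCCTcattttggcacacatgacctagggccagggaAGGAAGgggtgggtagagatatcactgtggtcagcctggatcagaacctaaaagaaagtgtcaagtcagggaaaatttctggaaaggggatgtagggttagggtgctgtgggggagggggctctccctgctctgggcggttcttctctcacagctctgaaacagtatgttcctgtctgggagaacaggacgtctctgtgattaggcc
Fcer1g, chr1:171234300-171234599, minus strand: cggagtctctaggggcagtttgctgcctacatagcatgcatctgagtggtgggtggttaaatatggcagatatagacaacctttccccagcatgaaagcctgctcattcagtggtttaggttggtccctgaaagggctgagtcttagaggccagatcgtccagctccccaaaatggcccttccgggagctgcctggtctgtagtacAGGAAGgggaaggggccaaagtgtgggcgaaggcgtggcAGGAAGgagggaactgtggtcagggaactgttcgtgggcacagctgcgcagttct
Cybb, chrX:9469275-9469574, minus strand: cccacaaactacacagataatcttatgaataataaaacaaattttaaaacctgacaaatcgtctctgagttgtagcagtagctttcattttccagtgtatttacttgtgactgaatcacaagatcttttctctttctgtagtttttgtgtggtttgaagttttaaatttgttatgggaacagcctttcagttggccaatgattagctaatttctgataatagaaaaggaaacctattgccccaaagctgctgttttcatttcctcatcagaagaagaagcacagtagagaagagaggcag

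The KO lines were then compared with WT by limma on log2(TPM + 1), with Benjamini-Hochberg adjustment over all 14337 tested genes. Calls below have an adjusted p under 0.05. All 32 members passed the expression filter. The KO effect of a clone is the average of its 2 KO lines minus WT, and errors of log2 fold changes are standard errors.

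In 6694c2 few of the marker genes were called. Their median standard error was 0.58 on the log2 scale, so a gene left uncalled is not shown to be unchanged. Cybb was called higher and Cd53 lower, 1 of 32 in each direction, beside 23.9% of all tested genes called higher and 13.5% called lower. The members had a median log2 fold change of −0.23, beside 0.07 over all tested genes, and 27 of 32 were negative. With single libraries left out this median ran from −0.59 without WT 4 to 0.19, with 11 members negative, without WT 2, and 2 members were called lower without WT 4 or without 6419c5 KOA 2. C1qa had a KO effect of −0.60 ± 0.81 (adjusted p 0.601) and Csf1r of −0.18 ± 0.76 (adjusted p 0.875).

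In 6419c5, 9 of the 32 members were called lower and 2 higher, beside 15% of all tested genes called lower and 26.5% called higher. The median was −1.65, beside 0.08 over all tested genes, and 30 of 32 members were negative. The 9 lower genes were the actin regulator Coro1a, Tyrobp, the IgG receptor Fcgr3, the scavenger receptor Msr1, the membrane proteins Ms4a7 and Ms4a6c, the chemokine receptors Ccr2 and Cx3cr1, and lysozyme (Lyz2). The 2 higher genes were Cybb and Cd14. C1qa, at −1.93 ± 0.93 (adjusted p 0.106), and Csf1r, at −1.91 ± 0.87 (adjusted p 0.0891), did not pass the test.

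That count depended on single libraries. Without KOA 2, all 32 members were called in 6419c5, 30 lower and 2 higher, with a median of −2.30, beside 15.8% and 25.2% of the 14254 genes then tested. The median standard error of the members was 0.50 without it and 0.67 with it. Without WT 3 only 1 member was called lower, without WT 2 only 2, and without KOA 1 or KOA 3 only 4 each, while 16 were lower without WT 1. Each time 2 were higher. Without both libraries of high Mir6236 the counts were 1 lower and 2 higher. With the line as a random effect no member was called in either clone (limma; 1 higher in each clone at an unadjusted p under 0.05), a fit that sets 2 KO lines against 1 WT line in each clone. The part of each library's cell make-up in these counts was not tested.

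**Figure D4:**
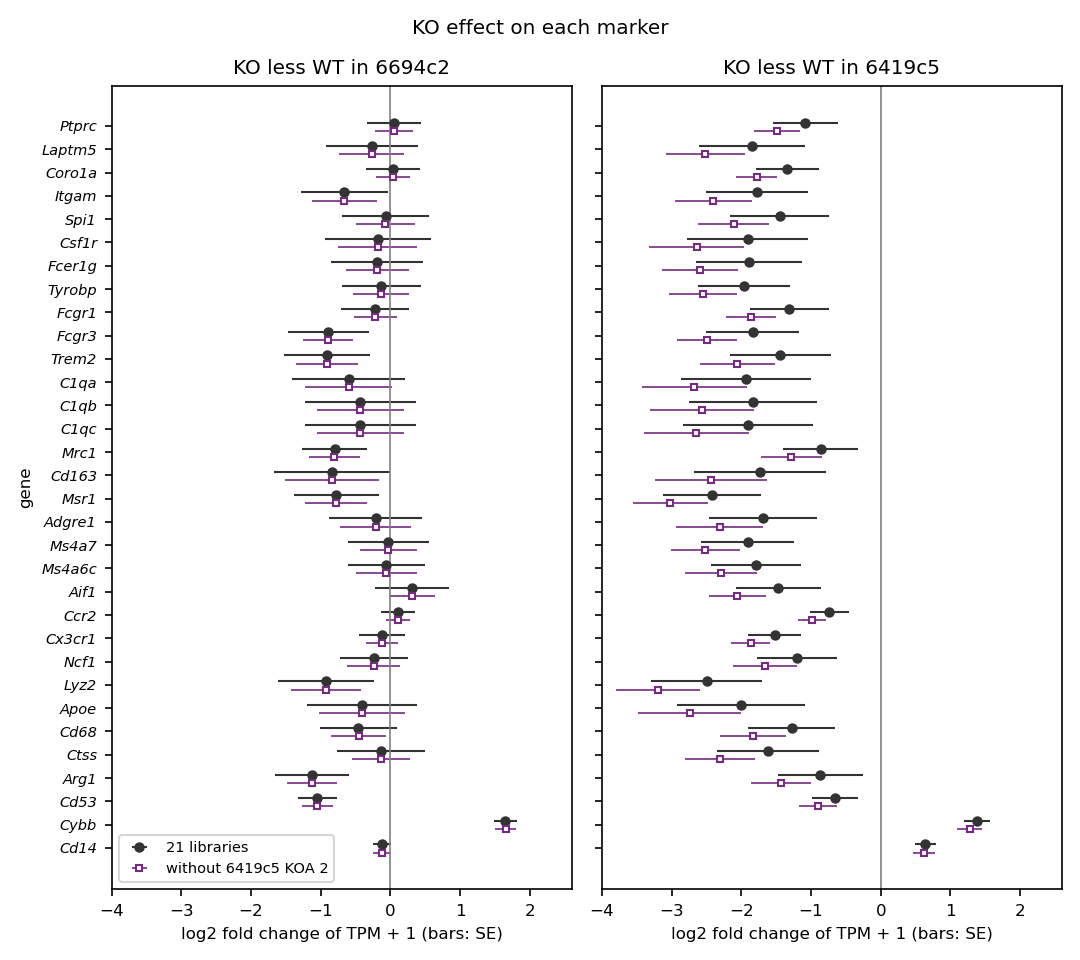
KO effect (log2 fold change of TPM + 1, x axis, with bars of 1 SE) on each of the 32 genes (y axis) in 6694c2, left, and 6419c5, right. Filled circles use 21 libraries and open squares leave out 6419c5 KOA 2. In 6419c5, 30 genes lie left of 0 in both fits and Cybb and Cd14 right of it, and most squares lie further left with shorter bars.

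Averaged over the clones, 2 members were called higher and 8 lower, beside 32.3% and 16.6% of all tested genes, with a median of −0.96. Cybb and Cd14 were higher, and Cd53, Itgam, Fcgr3, Trem2, Msr1, Cx3cr1, Lyz2 and Arg1 were lower. The lower count depended on most libraries. It was 30 without 6419c5 KOA 2, beside 17.3% of the genes then tested, 14 without 6419c5 WT 1 and 4 without 6419c5 WT 3. It was 5 without any one of 6694c2 WT 1, WT 2, WT 3, KOA 1, KOA 2, KOB 1, KOB 3 or KOB 4, or of 6419c5 WT 2, KOA 1, KOA 3, KOB 1 or KOB 3. The higher count was 1 without 6694c2 WT 1, WT 3, WT 4, KOA 1 or KOB 3, or without 6419c5 WT 1, WT 3, KOA 2, KOA 3 or KOB 2.

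The difference between the clones' KO effects (6694c2 less 6419c5) was called for 1 member as higher and 1 as lower, beside 13.0% and 15.6% of all tested genes. Cx3cr1, the fractalkine receptor, had a difference of 1.40 ± 0.50 (adjusted p 0.0448), and Cd14 one of −0.77 ± 0.20 (adjusted p 0.00751). The Cx3cr1 call was lost when any of 17 of the 21 libraries was left out (adjusted p up to 0.163), and the Cd14 call was kept in all 21 cases. Without 6419c5 KOA 2, 17 members had a called positive difference, beside 13.6% of the 14254 genes then tested. Without 6419c5 WT 1 there were 3, and without 6694c2 WT 2 there were 2.

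Taken line by line, more members were called lower in the KOB lines than in the KOA lines. The 2 KO lines of a clone share its WT libraries, so their values are given side by side and not as separate support. In 6694c2, KOA against WT had 1 member called higher (Cybb) and none lower (limma; none at an unadjusted p under 0.05 either), beside 15.2% and 7.56% of all tested genes, with a median of 0.31. That median was 0.04 without KOA 4, 0.05 without WT 4, 0.07 without KOA 3, 0.53 without KOA 1 and 0.73 without WT 2. KOB against WT had 1 higher (Cybb) and 4 lower (Cd53, Fcgr3, Mrc1 and Arg1), beside 29.2% and 19.4%, with a median of −0.88. The 4 lower were 2 without WT 2 or without KOB 1, and the median was −0.37 without WT 2. They were 7 without 6419c5 KOA 2, beside 19.8% of the genes then tested.

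In 6419c5, KOA against WT had 1 higher (Cybb) and none lower (limma; 3 at an unadjusted p under 0.05), beside 19.1% and 12.7% of all tested genes, with a median of −1.02. Without KOA 2 there were 28 lower, beside 12.3% of the genes then tested, and the median was −2.21. Without WT 1 there were 2 lower. The median was −0.54 without KOA 1 and −0.31 without KOA 3. KOB against WT had 2 higher (Cybb and Cd14) and 17 lower, beside 28.5% and 14.7%, with a median of −2.27. The 17 were 28 without KOA 2, beside 15.5% of the genes then tested. They were 8 without WT 2, 7 without WT 3, 9 without KOB 1 and 10 without KOB 3.

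In 6419c5, pan-leukocyte genes other than Cd53 showed this pattern at their own levels. For Cd53, KOB less WT of that clone was −0.67 ± 0.38 and was not called (limma, adjusted p 0.16). Ptprc (CD45, a phosphatase of all nucleated blood cells) averaged 5.26 ± 6.52 TPM in KOA and 1.34 ± 0.258 TPM in KOB, against 6.41 ± 3.28 TPM in WT of 6419c5 (SD, n = 3 each), and KOB less WT was −1.54 ± 0.53 (adjusted p 0.0243). Laptm5 averaged 64.8 ± 95.03 and 12.03 ± 2.17 TPM in KOA and KOB, against 73.3 ± 34.1 TPM in WT, and KOB less WT was −2.39 ± 0.88 (adjusted p 0.0356). In 6694c2, Ptprc ran from 0.861 to 2.90 TPM in KOA and 0.652 to 1.52 TPM in KOB, against 0.524 to 3.02 TPM in WT, with the 3 ranges overlapping. Coro1a, whose protein binds actin in leukocytes, was the one gene of this group called in the KO effect of 6419c5, at −1.34 ± 0.45 (adjusted p 0.0217). Itgam had 2.79 to 4.92 TPM in KOB of that clone, against 8.36 to 35.8 TPM in WT, and KOB less WT was −2.31 ± 0.84 (adjusted p 0.0332).

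The adaptors and receptors that signal through them moved as a block between libraries. Tyrobp had 22.4, 246 and 18.2 TPM in KOA and 14.5, 16.7 and 15.8 TPM in KOB, against 72.8, 141 and 126 TPM in WT of 6419c5, a KO effect of −1.96 ± 0.66 (adjusted p 0.0237). Fcer1g had 13.3, 226 and 9.56 TPM in KOA and 11.3, 17.97 and 12.2 TPM in KOB, against 41.5, 127 and 95.9 TPM in WT, and KOB less WT was −2.47 ± 0.88 (adjusted p 0.0309). Both had 5 of 6 KO libraries below every WT library. Of the receptors, Fcgr3 (a low-affinity IgG receptor) had a KO effect of −1.84 ± 0.67 (adjusted p 0.0349), Fcgr1 (the high-affinity one) had −1.31 ± 0.57 (adjusted p 0.0736) and Trem2 (a lipid sensor) had −1.44 ± 0.72 (adjusted p 0.116). Trem2 alone of these 5 genes was also not called in KOB against WT of that clone, at −1.96 ± 0.83 (adjusted p 0.0636).

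The scavenger receptors followed the shared pattern, with r of 0.971 for Msr1, 0.964 for Cd163 and 0.942 for Mrc1. Msr1, the class A receptor for modified lipoproteins, had the largest called fall of the restricted members in 6419c5, with 1.38, 25.4 and 1.06 TPM in KOA and 1.15, 1.39 and 1.02 TPM in KOB, against 6.60, 23.7 and 29.1 TPM in WT and a KO effect of −2.42 ± 0.70 (adjusted p 0.00956). Like Ccr2, Cx3cr1 and Cd14, it did not exceed the highest WT library in KOA 2. Cd163, which takes up haemoglobin bound to haptoglobin, had the widest range of all members, 367-fold between libraries, and was not called in any comparison, with a KO effect of −1.73 ± 0.95 (adjusted p 0.157) in 6419c5. Mrc1, the mannose receptor, was called in KOB of 6694c2, where it had 3.81, 17.6, 7.71 and 7.35 TPM in KOB, against 20.7, 46.6, 24.8 and 19.96 TPM in WT, at −1.61 ± 0.54 (adjusted p 0.0189). All 4 of those KOB libraries lay below the WT libraries.

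Among the other macrophage proteins, Ms4a7 and Ms4a6c, both of the membrane-spanning 4A family, had KO effects of −1.91 ± 0.67 (adjusted p 0.0293) and −1.79 ± 0.64 (adjusted p 0.0318) in 6419c5. Adgre1 and Aif1 (the actin-binding protein IBA1) were called in KOB against WT of that clone, at −2.43 ± 0.89 (adjusted p 0.0346) and −2.22 ± 0.70 (adjusted p 0.0161), but not in the KO effect. In 6694c2 none of the 4 passed the test in any comparison of a KO line with WT. Aif1 there ran from 2.72 to 5.84 TPM in KOA and 0.689 to 2.39 TPM in KOB, against 0.826 to 4.29 TPM in WT.

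The chemokine receptors were among the low-level members. Ccr2, which draws monocytes toward CCL2, had 0.594, 3.43 and 0.614 TPM in KOA and 0.348, 0.771 and 0.607 TPM in KOB, against 1.12, 2.02 and 3.81 TPM in WT of 6419c5, a KO effect of −0.74 ± 0.28 (adjusted p 0.0385). Cx3cr1 had 1.21, 10.5 and 2.38 TPM in KOA and 1.08, 1.41 and 1.08 TPM in KOB, against 4.15, 8.11 and 14.1 TPM in WT, a KO effect of −1.52 ± 0.38 (adjusted p 0.00356). For both, 5 of 6 KO libraries lay below every WT library and KOA 2 fell within the WT range. In 6694c2 Cx3cr1 kept to 0.467 to 1.39 TPM in KOA and 0.687 to 1.35 TPM in KOB, against 0.760 to 1.99 TPM in WT.

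Cybb was higher in the KO lines of both clones. It encodes NOX2, the catalytic subunit of the phagocyte NADPH oxidase, which makes superoxide. It had 20.7, 18.9, 25.1 and 22.5 TPM in KOA and 11.99, 10.8, 10.9 and 11.6 TPM in KOB, against 4.31, 5.12, 3.48 and 4.51 TPM in WT of 6694c2. In 6419c5 it had 26.3, 35.6 and 18.6 TPM in KOA and 26.98, 40.8 and 33.6 TPM in KOB, against 6.83, 13.7 and 12.8 TPM in WT. All 8 KO libraries of 6694c2 and all 6 of 6419c5 lay above every WT library of their clone. The KO effect was 1.65 ± 0.17 (adjusted p 5.62e-07) in 6694c2 and 1.38 ± 0.19 (adjusted p 1.72e-05) in 6419c5, and the difference between these, 0.27 ± 0.26, was not called (adjusted p 0.465).

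Each KO line was called by itself for Cybb, with log2 fold changes in 6694c2 of 2.09 ± 0.19 (KOA) and 1.21 ± 0.19 (KOB), and in 6419c5 of 1.21 ± 0.22 (KOA) and 1.56 ± 0.22 (KOB) (adjusted p between 5.37e-07 and 0.00041). KOA exceeded KOB in 6694c2 by 0.88 ± 0.19 (adjusted p 0.00107). The call in each clone held in 31 of 32 alternative analyses and was lost with the line as a random effect, with adjusted p of 0.071 in 6694c2 and 0.082 in 6419c5. The cytosolic subunit of the same oxidase, Ncf1, did not share this: it averaged 6.71 ± 4.12 TPM in KOA and 2.53 ± 1.03 TPM in KOB, against 5.96 ± 5.69 TPM in WT of 6694c2 (SD, n = 4 each), a KO effect of −0.24 ± 0.49 (adjusted p 0.739). In 6419c5 the KO effect on Ncf1 was −1.20 ± 0.57 (adjusted p 0.101). Within the KO lines of 6694c2, Cybb varied less between libraries than any other member, and its highest library was 1.11-fold the lowest in KOB and 1.33-fold in KOA of 6694c2, while the median member spanned 3.5-fold and 3.79-fold.

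**Figure D5:**
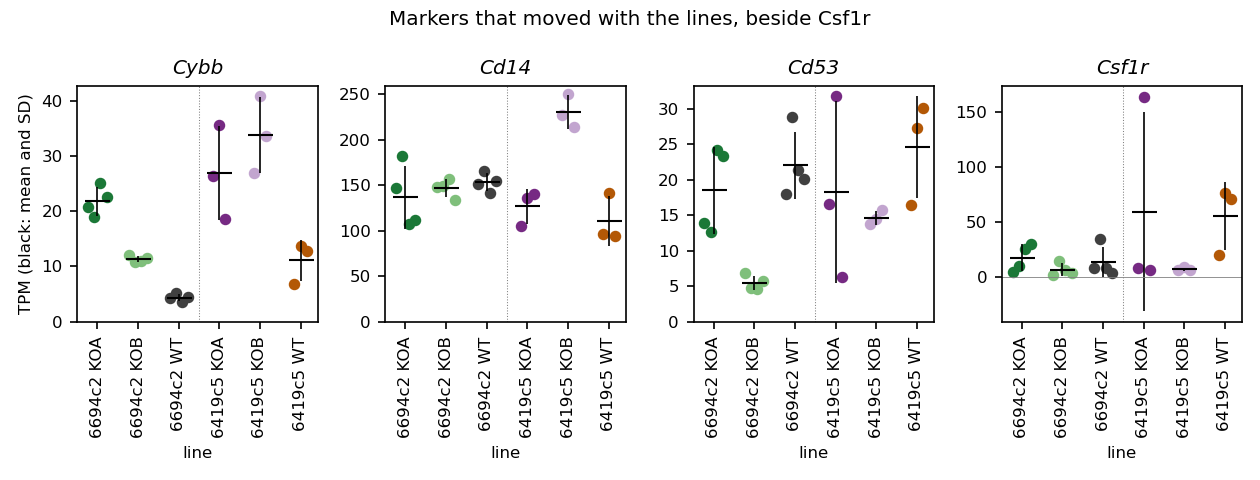
Levels of Cybb, Cd14, Cd53 and Csf1r in TPM (y axes) by clone and line (x axes), with 1 coloured point per library and the mean and SD of each line in black. Cybb is higher in every KO library than in any WT library of its clone, Cd14 stands out in 6419c5 KOB (214 to 250.9 TPM), Cd53 in 6694c2 KOB (4.67 to 6.797 TPM), and Csf1r varies within lines.

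Cd14, the co-receptor that hands lipopolysaccharide to TLR4, hardly varied between libraries, 2.67-fold from lowest to highest. It had 105, 136 and 140.2 TPM in KOA and 227, 251 and 214 TPM in KOB, against 96.1, 142 and 94.1 TPM in WT of 6419c5. The KOB libraries stood above all others, and the KOA libraries overlapped WT. KOB less WT was 1.08 ± 0.17 (adjusted p 8.14e-05), KOA less WT was 0.21 ± 0.17 (adjusted p 0.389), and the KO effect was 0.64 ± 0.15 (adjusted p 0.0021). In 6694c2 Cd14 averaged 137 ± 34.8 TPM in KOA and 147 ± 9.70 TPM in KOB, against 153 ± 9.91 TPM in WT (SD, n = 4 each), a KO effect of −0.12 ± 0.13 (adjusted p 0.49).

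Cd53, a tetraspanin of leukocyte membranes, separated KOB of 6694c2 from its sister lines. It had 13.8, 12.7, 24.2 and 23.4 TPM in KOA and 6.80, 4.69, 4.67 and 5.72 TPM in KOB, against 17.9, 28.8, 21.3 and 20.1 TPM in WT. The KOB libraries lay below all others of the clone, and KOA overlapped WT. KOB less WT was −1.82 ± 0.33 (adjusted p 0.000146), KOA less WT was −0.27 ± 0.33 (adjusted p 0.594), and the KO effect of −1.05 ± 0.28 (adjusted p 0.00703) lost its call when both KO lines formed 1 group (adjusted p 0.0758) or the line was a random effect (adjusted p 0.697). Across all 21 libraries Cd53 spanned 6.8-fold, while C1qb spanned 111-fold.

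Of the members that other cells can also express, Lyz2, the macrophage lysozyme, had the largest called fall, with 83.3, 1324 and 64.6 TPM in KOA and 73.9, 135 and 86.4 TPM in KOB, against 473, 1084 and 893 TPM in WT of 6419c5 and a KO effect of −2.50 ± 0.80 (adjusted p 0.0174). Arg1, the arginase that depletes arginine, separated KOB of 6694c2: it had 25.3, 23.02, 30.9 and 32.1 TPM in KOA and 6.03, 9.73, 5.08 and 5.61 TPM in KOB, against 26.1, 101, 24.5 and 13.4 TPM in WT. All 4 KOB libraries lay below the others, and KOB less WT was −2.10 ± 0.61 (adjusted p 0.00792). In 6419c5 Arg1 in KOB ran from 45.4 to 55.6 TPM, close to the lowest WT library at 58.1 TPM. Apoe had 184 to 295 TPM in KOB, against 768 to 2156 TPM in WT of 6419c5, and KOB less WT, −2.65 ± 1.06 (adjusted p 0.0507), just missed the threshold. The lysosomal genes Cd68, a sialomucin, and Ctss, the protease cathepsin S, had KO effects of −1.28 ± 0.63 (adjusted p 0.114) and −1.62 ± 0.73 (adjusted p 0.0842) in that clone.

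Between the KO lines, KOA exceeded KOB in 31 of 32 members in 6694c2 (median 1.26), and 4 were called higher (Cd53, Mrc1, Cybb and Arg1) and none lower (limma; 7 higher and none lower at an unadjusted p under 0.05), beside 22.9% and 23.6% of all tested genes. The 4 became 7 without KOA 1 and 17 without 6419c5 KOA 2, the latter beside 23.7% of the genes then tested. In 6419c5, none was called higher and 1, Cd14, lower at −0.86 ± 0.17 (adjusted p 0.00221) (limma; 4 higher and 1 lower at an unadjusted p under 0.05), beside 4.76% and 12.7%, with a median of 1.12. Without KOA 2 that median was −0.18 and the counts were the same. Without KOA 1 there was 1 higher, and without KOA 3 there were 2, with a median of 1.84.

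The WT lines differed too. WT of 6694c2 against WT of 6419c5 had 1 member called higher and 16 lower, beside 21.5% and 32% of all tested genes, with a median of −1.83, beside −0.11 over all tested genes. Cd14 was the higher one, at 0.49 ± 0.16 (adjusted p 0.0168). Cybb was lower, at −1.13 ± 0.21 (adjusted p 0.000179), as were Tyrobp, at −2.54 ± 0.72 (adjusted p 0.00608), and Cx3cr1, at −2.07 ± 0.41 (adjusted p 0.000365). The 16 were 29 without 6694c2 WT 2 or without 6419c5 KOA 2, the latter beside 32.6% of the genes then tested. They were 7 without 6419c5 WT 3, 8 without 6419c5 WT 2, and 9 or 10 without one of the remaining 6694c2 WT libraries. Cd14 lost its call without 6419c5 WT 1 (0.40, adjusted p 0.0779) or WT 3 (0.39, adjusted p 0.0887).

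To see what was left once the shared level was held, the mean log2(TPM + 1) of the C1q genes was added to the fit as a covariate, a step chosen after the values were seen. The standard errors of the other 29 members then lay between 0.11 and 0.34. In 6694c2 their median was 0.06, beside −0.21 without the covariate, with 1 called higher (Cybb, 1.71 ± 0.14, adjusted p 7.87e-08) and 6 lower (Cd53, Fcgr3, Trem2, Mrc1, Lyz2 and Arg1), beside 25% of all tested genes called higher and 13.4% called lower. In 6419c5 the median was −0.25, beside −1.52, with 2 called higher (Cybb, 1.61 ± 0.18, adjusted p 2.52e-06, and Cd14, 0.66 ± 0.17, adjusted p 0.00511) and 4 lower (Tyrobp, Msr1, Cx3cr1 and Lyz2), beside 26.6% and 12.2% of all tested genes. The 4 of 29 called lower are a share near that background. Coro1a, Fcgr3, Ms4a7, Ms4a6c and Ccr2 lost their calls there. Lyz2 was lower in both clones, at −0.51 ± 0.15 in 6694c2 (adjusted p 0.0138) and −0.91 ± 0.19 in 6419c5 (adjusted p 0.00128).

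Other macrophage and myeloid genes, a list of 40, moved with the members: their summed TPM was highest in the same library as the members' in 6 of 6 lines, and it was 12.1-fold higher in 6419c5 KOA 2 than in the other KOA libraries. In 6694c2, 1 of the 40 was called higher and 1 lower (limma), beside 23.9% and 13.5% of all tested genes, with a median of −0.11. In 6419c5 none was called higher and 9 lower, beside 26.5% and 15% of all tested genes, with a median of −1.13. Clec4n, a C-type lectin receptor, averaged 10.1 ± 17.1 TPM in KO (SD, n = 6), against 36.1 ± 12.9 TPM in WT (SD, n = 3) of 6419c5, a KO effect of −2.58 ± 0.69 (adjusted p 0.00565). Lcp1, an actin bundler of leukocytes, averaged 13.8 ± 22.2 TPM in KO, against 35.2 ± 15.6 TPM in WT, a KO effect of −1.98 ± 0.61 (adjusted p 0.0148). In 6694c2, Ptpn6, the phosphatase SHP-1, averaged 10.4 ± 5.03 TPM in KO (SD, n = 8), against 19.4 ± 4.11 TPM in WT (SD, n = 4), a KO effect of −0.94 ± 0.24 (adjusted p 0.00518). Irf8, an interferon-regulated transcription factor of myeloid cells, was higher there, with 18.7 ± 8.23 TPM in KO, against 5.55 ± 2.54 TPM in WT, a KO effect of 1.56 ± 0.42 (adjusted p 0.00692).

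Dendritic cell markers, 10 genes, also peaked in the same library as the members in 6 of 6 lines. They summed to 9.08 to 31.3 TPM in KOA and 4.84 to 19.1 TPM in KOB, against 6.54 to 16 TPM in WT of 6694c2, and to 8.04 to 110 TPM in KOA and 11.7 to 20.1 TPM in KOB, against 13.5 to 51.4 TPM in WT of 6419c5. Clec10a, which macrophages can share, reached 76.6 TPM, Cd209a 12.6, Itgax 7.99, Batf3 7.87, Zbtb46 4.35 and Ccr7 3.29 TPM, while Clec9a, Xcr1, Flt3 and Siglech stayed at or under 0.791 TPM. T and NK cell markers summed to between 3.76 and 16.6 TPM per library over 15 genes, with Cd3g at 0 in 9 libraries and Ncr1 in 18, and with Cd3d (1.98 to 6.72 TPM), Cd4, Cd8a, Lck and Il2rb at 0 in none. B and plasma cell markers summed to between 0.706 and 9.18 TPM over 8 genes. Of the monocyte and neutrophil list, Plac8 reached 2407 TPM, Chil3 182, Mmp9 38.1, S100a8 14, Retnlg 8.35, Csf3r 7.35 and Cxcr2 4.42 TPM, all of them above 0 in every library. This list's sum, carried by Plac8, peaked in the members' library in 2 of 6 lines. It was 0.909 times as high in 6419c5 KOA 2 as in the other KOA libraries. Plac8 had 2106 to 2407 TPM in KOA and 1938 to 2157 TPM in KOB, against 628 to 1311 TPM in WT of 6419c5. Which cells expressed Plac8 was not tested. The granule genes Elane, Ngp, Mpo and Camp were at 0 in 18 or more libraries.

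Fibroblast and pericyte markers did not follow the members library by library, since their highest library matched in 1 of 6 lines. They summed to 107 to 132 TPM in KOA and 240 to 366 TPM in KOB, against 267 to 635 TPM in WT of 6419c5. There 6 of the 12 markers were called lower and none higher, beside 15% and 26.5% of all tested genes. In 6694c2 they summed to 83.7 to 194 TPM in KOA and 19.6 to 28.8 TPM in KOB, against 59.1 to 86.6 TPM in WT. In that clone 1 was called higher and 2 lower, beside 23.9% and 13.5% of all tested genes. Their part in the members' differences was not tested. Of the smaller lists, endothelial markers peaked in the members' library in 2 of 6 lines and mast cell and basophil markers in 3 of 6. Erythroid and platelet markers did so in 5 of 6 lines. Among them Pf4 ran from 10.5 to 221 TPM in KOA of 6419c5, while Hba-a1 ran from 178 to 207 and Hba-a2 from 60.5 to 188 TPM there. Which cells these transcripts came from was not tested.

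Growth factors and chemokines that act on macrophages (Csf1, Il34, Csf2, Ccl2, Ccl7, Ccl12 and Cx3cl1) summed to 117 to 263 TPM in KOA and 133 to 169 TPM in KOB, against 199 to 273 TPM in WT of 6694c2. There 2 of 7 were called lower and none higher (limma), beside 13.5% and 23.9% of all tested genes. In 6419c5 they summed to 170 to 340 TPM in KOA and 183 to 318 TPM in KOB, against 194 to 311 TPM in WT. Of these 7 factors, 1 was called higher and 1 lower in that clone, beside 26.5% and 15% of all tested genes. Their sum peaked in the members' library in 6 of 6 lines, and it was 1.97 times as high in 6419c5 KOA 2 as in the other KOA libraries.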

How the data were processed

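RNA of sorted tumour cells was sequenced in 21 libraries. The authors deposited 1 table of TPM values per gene and library, made with Salmon on mm10, per the submitters' processing notes. The Salmon version and the annotation are not given in the sources used here. TPM keeps no depth, so no counting interval was computed.

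The 14337 genes that reached 1 TPM in 3 or more libraries were tested as log2(TPM + 1), a scale that understates changes of low genes. The limma model (limma 3.58.1, R 4.3.3) had a mean per line and eBayes with trend. It was tested on simulated data. Residual degrees of freedom were 15 and prior degrees 3.12, and Benjamini-Hochberg adjustment ran over all tested genes with a threshold of 0.05. Tables and figures used Python 3.11.15, pandas 2.3.3 and matplotlib 3.10.9.

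The members and the other gene lists were chosen with earlier results of these data known. All members are named. Of each other list the 3 genes of highest mean TPM could be named, of the other macrophage genes also the 6 of smallest p, and of genes on no list the 10 most like the members, of which 1 is not reported here. Genes named to show absent cell types were chosen after their values were seen. Alternatives varied the pseudocount, filter, scaling, libraries, model and pairing.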

Additional observations from a re-analysis of the deposited data

Results flagged for a closer look

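WT 2 of 6694c2 stood apart from the other 3 libraries of its line for 19 members and for their sum, by Dixon's criterion for 4 values (0.829), which marks about 1 in 20 sets by chance. Of 99 sets of 4 libraries examined, 21 were marked, 20 of them for this library, and the sets share their libraries. Its sum over the 26 leukocyte-restricted genes was 1116.0 TPM. Its levels in TPM were 251.6 for C1qa, 186.1 for C1qb, 199.7 for C1qc, 34.22 for Csf1r, 56.04 for Tyrobp, 39.04 for Fcgr3, 3.493 for Fcgr1 and 27.24 for Trem2. They were 50.48 for Laptm5, 9.484 for Coro1a, 22.18 for Itgam, 21.57 for Cd163, 12.69 for Msr1, 11.78 for Adgre1 and 14.49 for Ncf1. Of the members that other cells can express, Lyz2 stood at 513.4, Apoe at 1237.6, Ctss at 81.77 and Arg1 at 101 TPM. The other marked value was Ccr2 in KOA 2 of 6694c2, the lowest of its line at 0.582 TPM.

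The KO effects of the clones (6694c2 less 6419c5) differed by test for Cx3cr1, by 1.40 on the log2 scale, and for Cd14, by −0.77. The Cx3cr1 call was lost when any of 17 of the 21 libraries was left out, and the Cd14 call was lost in none of these cases. Both calls were lost with the KO lines pooled or the line as a random effect.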

How the results depend on the processing

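The results rest on 21 TPM libraries of unknown depth. Each clone has 2 KO lines and 1 WT line, so line and genotype differences cannot be told apart beyond these lines, and single libraries set many counts. Over 77 member and comparison pairs, 1943 of 2311 alternative values kept their direction and side of the threshold, 360 lost the threshold, 4 passed it newly and 4 changed sign. The pairs were those called in the fit of all 21 libraries, with C1qa and Csf1r added for the KO effect of each clone. Few pairs could therefore pass the threshold newly, and that number does not measure how often calls were gained. Where a value moved, the cause was not tested.

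The KO effect in 6694c2 (2 called) gave 1 with KO lines pooled and 0 with the line as a random effect. In 6419c5 (11) it gave 5 without the filter, with KO lines pooled or with the clones fitted apart, 3 without the 2 libraries of high Mir6236, and 0 with the random effect. The mean effect (10) gave 6 without the filter or pooled, 4 without those libraries and 1 with the random effect. The difference between clones (2) gave 1 with a pseudocount of 0.1, without the filter or without those libraries, and 0 pooled or with the random effect. KOB against WT in 6419c5 (19) gave 12 without the filter, 29 with quantile normalization, 9 without those libraries and 8 with the clones apart. KOA against KOB in 6694c2 (4) gave 11 with the clones apart. WT against WT (17) gave 11 without the filter, 6 without those libraries, 10 pooled and 0 with the random effect. With the C1q covariate, chosen after seeing the data, the counts were 7 in 6694c2 and 6 in 6419c5.

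With each library left out in turn, the counts ran from 2 to 3 for the KO effect in 6694c2, 3 to 32 in 6419c5, 5 to 31 for their mean, 1 to 18 for the difference, 1 to 1 and 3 to 8 for KOA and KOB of 6694c2, 1 to 29 and 9 to 30 for KOA and KOB of 6419c5, 3 to 17 and 1 to 3 for KOA against KOB in 6694c2 and 6419c5, and 7 to 30 for WT against WT. The log2 ratio of summed levels ran from −0.67 to 0.54 in 6694c2 and from −2.45 to −0.51 in 6419c5. In 6694c2 the KO effect on Csf1r turned to 0.40 without WT 2, 0.06 without KOA 1 and 0.27 with the C1q covariate, and that on C1qa to 0.02 without WT 2. With single libraries left out, these ran from −0.58 to 0.40 for Csf1r and −1.04 to 0.02 for C1qa.

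Most same-numbered libraries did not deviate together (6 of 21 pairs over 0.1, −0.147 to 0.173), and these values gave no ground for pairing by number. Yet library 2 had the highest sum of the leukocyte-restricted genes in KOB (349 TPM) and WT (1116 TPM) of 6694c2. In 6419c5 library 2 was highest in KOA (4008 TPM), KOB (346 TPM) and WT (2000 TPM). In KOA of 6694c2 library 4 was highest, at 915 TPM. Whether the numbers mark a shared batch for these genes was not tested. With the replicate number as a block the counts were 22 for the KO effect in 6419c5, 16 for the mean, 4 for the difference, 29 for KOB against WT in 6419c5 and 7 for KOA against KOB in 6694c2, and 6 of 21 libraries were most like their own number.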
